A study of Homo sapiens with 6 samples.

Results

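Small leucine-rich proteoglycans are secreted matrix proteins with a short core of leucine-rich repeats. Of the 21872 genes in the table, 8 were followed here, chosen by symbol: biglycan (Bgn), decorin (Dcn), asporin (Aspn), lumican (Lum), fibromodulin (Fmod), prolargin (Prelp), osteomodulin (Omd) and osteoglycin (Ogn). All 8 have a row. The family was picked with the knockout and control values of these libraries already known, so the members' values are given as a description, without p-values.

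The members are usually sorted into classes by sequence and gene structure. Class I holds Bgn, Dcn and Aspn, class II holds Lum, Fmod, Prelp and Omd, and class III holds Ogn. Most of these core proteins bind collagen and set the width and spacing of its fibrils. Several carry glycosaminoglycan chains, either chondroitin and dermatan sulfate (Bgn, Dcn) or keratan sulfate (Lum, Fmod, Omd). Connective tissue cells such as fibroblasts, tendon cells and osteoblasts are their usual source.

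The cells were of the mouse line MOC2, from an oral squamous carcinoma, and gave 3 HuR knockout and 3 control libraries of bulk RNA. The labels give the organism as Homo sapiens, which conflicts with the line and with the mouse gene symbols. Cells of both groups were transduced for 18 h with lentiviral CRISPR/Cas9 particles at a multiplicity of 25, directed at HuR in the knockout and carrying the control construct in the control, and kept for a further 72 h. HuR, encoded by Elavl1, is an RNA-binding protein of AU-rich sequences. The labels' protocols mention 1 isolated clone, the genotype label says knockout where the titles say knockdown, and the design text calls the triplicates biological. Whether the libraries of a group came from separate clones or cultures is not said, so the p-values below measure only the spread between these libraries.

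Library totals were 16746166 to 20097377 counts in knockout and 16158516 to 21294330 in control. Log2 CPM correlated across genes at 0.99 to 0.995 between control libraries. Knockout library 3 correlated with the other knockout libraries at 0.927 and 0.932, against 0.981 between those 2. Elavl1 mRNA was at 116, 114 and 105 CPM in knockout and 107, 120 and 117 CPM in control (adjusted p = 0.82, edgeR's quasi-likelihood test), a level that neither checks nor contradicts the labels. The 9 epithelial markers looked up summed to 3030 to 4525 CPM in knockout and 8764 to 11120 CPM in control. Of the 8 tested by edgeR, 6 fell and 2 did not pass, against 15.4% falling over all genes tested. Epcam and Cdh1, which fell, were at 25.3 to 55.1 and 30.7 to 66.6 CPM in knockout, against 501 to 620 and 556 to 684 CPM in control. Krt5, not tested, went the other way, with 55 counts over the knockout libraries and 2 over the control libraries.

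The table has a feature that touches 4 of the 8 members. Where control library 1 was at 0 and any other library was not (1704 genes), every value was a multiple of 11, and such rows were divided by 11 before use. Ogn, Omd, Aspn and Prelp are 4 such rows, while Bgn, Dcn, Fmod and Lum are not. As deposited, Ogn stood at 1958, 8448 and 7876 counts in knockout libraries 1, 2 and 3, which became 178, 768 and 716 counts. Division leaves the pattern between libraries as it was. All CPM and bounds of these 4 genes are about 11 times lower than the deposited numbers would give. Their counting intervals are also wider relative to the value, so overlaps given below for these 4 genes can depend on the division. The levels of the 4 divided and the 4 undivided genes should not be set against each other. Counts are also not per length, so levels are compared below within a gene, not between genes.

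Of the 8 members, 7 had a count in at least 1 library, and in those 7 every knockout library lay above every control library in CPM, the counts scaled by each library's TMM-scaled total. Over all 16325 genes with a count, 25.2% had knockout above control in the same way. For Fmod and Dcn this separation rests on a handful of counts and on differences in library size. Only 3 of the members, Bgn, Ogn and Omd, had enough counts for the fit over all genes. A member near 0 in control could pass that filter only through its knockout counts.

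Biglycan, which carries chondroitin or dermatan sulfate chains, binds collagen and is a ligand of Toll-like receptors, was the class I member with the most even knockout values. Bgn had 63, 51 and 69 counts (3.43, 2.499 and 4.23 CPM) in knockout libraries 1, 2 and 3, against 2, 2 and 1 counts (0.0936, 0.0982 and 0.0608 CPM) in control libraries 1, 2 and 3. The knockout libraries lay within a 1.69-fold range, and the groups were far apart. The means were 3.39 ± 0.864 CPM in knockout and 0.0842 ± 0.0204 CPM in control (SD, n = 3 each), a ratio of 38.7 (exact 95% interval 16.3 to 121). All such intervals cover counting error only. With any 1 library left out the ratio lay between 34.0 and 44.4.

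Decorin, the best known member of the family and a binder of collagen and of TGF-β, stayed near the detection limit. Dcn had 4, 8 and 13 counts (0.218, 0.392 and 0.796 CPM) in knockout, against 4, 0 and 2 counts (0.187, 0 and 0.122 CPM) in control. Knockout library 1 and control library 1 held the same number of counts, and their intervals overlapped almost wholly. The pooled ratio was 4.40 (1.76 to 13.1), and it ranged from 2.80 without control library 2 to 8.32 without control library 1.

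Asporin, the class I member that bears an aspartate-rich stretch and is known as a regulator of collagen mineralisation, was silent in control. Aspn had 5, 44 and 18 counts (0.273, 2.16 and 1.10 CPM) in knockout libraries 1, 2 and 3, against 0 in each control library, where 3 counts would have been 0.140 to 0.182 CPM. Knockout library 1 was the lowest by far, with a 7.91-fold range across the 3, and its interval (0.0885 to 0.636 CPM) reached below the upper limits of the control libraries (0.173 to 0.224 CPM). Set against a floor of 3 counts over the whole control group, Aspn was at least 23.6-fold higher in knockout, and at least 12.9-fold without knockout library 2. Without control library 1 or 2 the bound was 14.9-fold and 15.0-fold, since fewer control counts were then sampled.

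Class II ran from a gene with no count at all to one of the larger bounds. Lumican, which shapes the collagen of cornea and skin, had 0 counts in all 6 libraries. Fibromodulin, a collagen-binding protein of tendon and cartilage, had 1, 3 and 1 counts (0.0545, 0.147 and 0.0612 CPM) in knockout, against 1, 0 and 0 (0.0468, 0 and 0 CPM) in control. The ratio of 5.28 for Fmod has an interval of 0.591 to 250, and no difference was detectable at this depth. It was 3.36 without knockout library 2 or control library 2, and a bound of 1.11-fold without control library 1.

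Prolargin, which binds collagen and heparan sulfate and anchors basement membranes to the tissue beneath, was the least even member. Prelp had 8, 2 and 46 counts (0.436, 0.0980 and 2.82 CPM) in knockout libraries 1, 2 and 3, against 0 in each control library. Knockout library 3 held most of the counts, the intervals of knockout library 1 (0.188 to 0.859 CPM) and library 2 (0.0119 to 0.354 CPM) overlapped with control, and the knockout libraries spanned a 28.8-fold range. Prelp was at least 19.7-fold higher in knockout, but the bound fell to 5.01-fold without knockout library 3 and was 30.2-fold without knockout library 2. Without control library 1 or 2 it was 12.4-fold and 12.6-fold.

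Osteomodulin, a keratan sulfate proteoglycan of bone and dentin that binds osteoblasts, was the class II member with the largest bound. Omd had 60, 264 and 98 counts (3.27, 12.9 and 6.002 CPM) in knockout libraries 1, 2 and 3, against 0 in each control library. The mean was 7.40 ± 4.98 CPM in knockout (SD, n = 3), and knockout library 2 was the highest. Omd was at least 149-fold higher in knockout, and at least 88.5-fold without knockout library 2, 93.6-fold without control library 1 and 94.6-fold without control library 2.

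Osteoglycin, also called mimecan, is the class III member and was first purified from bone. Ogn had 178, 768 and 716 counts (9.70, 37.6 and 43.9 CPM) in knockout libraries 1, 2 and 3, against 0 in each control library. Knockout libraries 2 and 3 were close to each other and about 4 times above knockout library 1. The mean was 30.4 ± 18.2 CPM in knockout (SD, n = 3), at least 585-fold higher than control. The bound was 369-fold without control library 1, 373-fold without control library 2 and 412-fold without control library 3, because the control group then holds fewer counts in all.

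At the deposited scale the bounds of Ogn, Omd, Aspn and Prelp would be 6417-fold, 1629-fold, 259-fold and 216-fold. These 4 genes belong to 1007 genes at 0 in every control library. Of the 1007, 20.2% had a count in every knockout library and 6.55% reached a mean of 1 CPM there, and all 4 members did both. Zero in control library 1 decided which rows were divided, so these shares describe the selection as well as the genes.

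**Figure D1:**
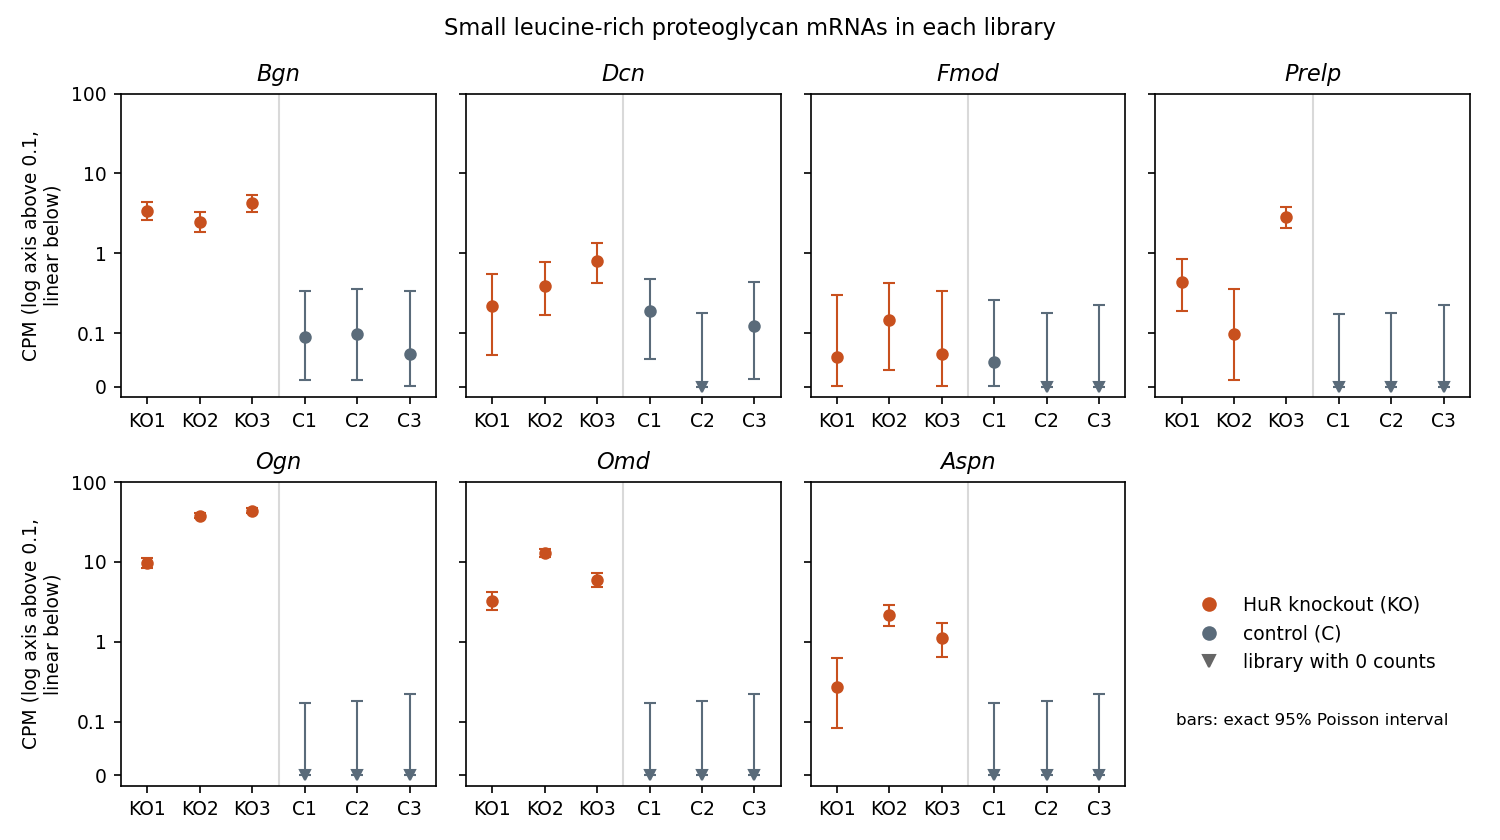
CPM of the 7 members with any count in each of the 3 HuR knockout (KO, orange) and 3 control (C, grey) libraries, on an axis that is linear below 0.1 CPM and logarithmic above; bars are exact 95% Poisson intervals and triangles mark libraries with 0 counts. Ogn reaches 9.70 to 43.9 CPM in knockout and is at 0 in control, Bgn stays between 2.499 and 4.23 CPM in knockout, and intervals overlap with control for Dcn and Fmod, for Prelp in knockout libraries 1 and 2 and for Aspn in knockout library 1.

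The members did not follow 1 common pattern across the knockout libraries. Ogn, Omd and Aspn were all lowest in knockout library 1, whereas Bgn and Prelp were lowest in knockout library 2 and highest in knockout library 3. Ratios between members within a library are free of the scaling, and all of Ogn, Omd, Aspn and Prelp were divided by the same number. The intervals of these ratios would be narrower on the deposited counts, so whether they overlap can depend on the division. There were 33.7 Omd counts per 100 Ogn counts in knockout library 1 (exact 95% interval 24.7 to 45.4) and 34.4 in knockout library 2 (29.8 to 39.6). Knockout library 3 had 13.7 (10.97 to 16.9), an interval below both others, so the Omd to Ogn ratio was alike in knockout libraries 1 and 2 and lower in library 3. Aspn stood at 8.33, 16.7 and 18.4 counts per 100 Omd counts in knockout libraries 1, 2 and 3, with overlapping intervals (2.61 to 20.6, 11.8 to 23.0 and 10.5 to 30.6). Prelp had 4.49, 0.260 and 6.43 counts per 100 Ogn counts there, so that it was lowest relative to Ogn in knockout library 2.

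**Figure D2:**
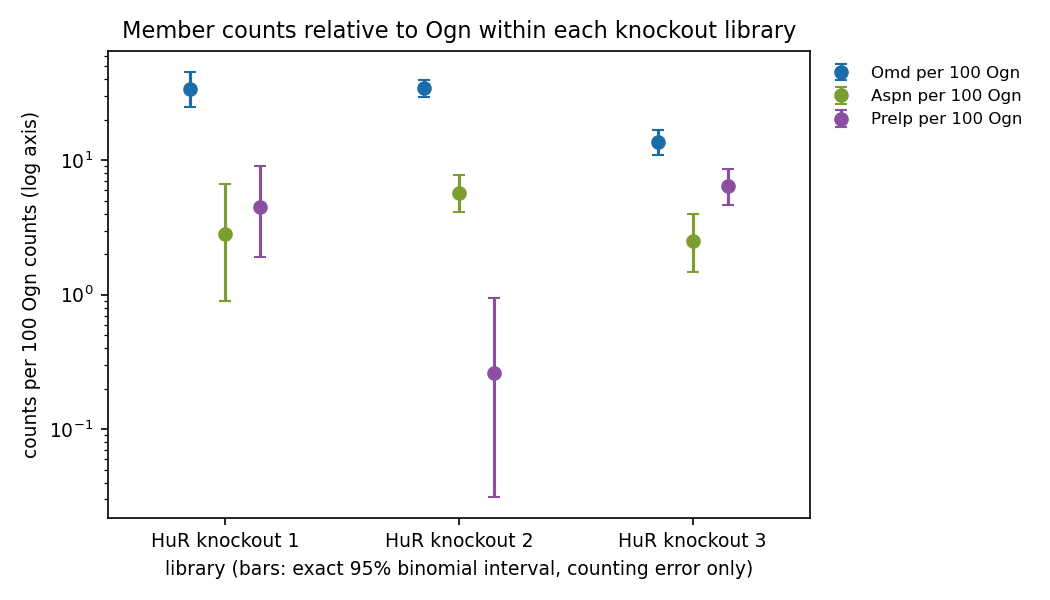
Counts of Omd, Aspn and Prelp per 100 Ogn counts within each of the 3 HuR knockout libraries, on a log axis, with exact 95% binomial intervals that cover counting error only. Omd is at 33.7 and 34.4 in libraries 1 and 2 and 13.7 in library 3, and Prelp is at 0.260 in library 2, against 4.49 and 6.43 in libraries 1 and 3.

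Several members are neighbours in the genome, and the neighbours were compared. No mouse gene order was used here. In the human RefSeq table (GRCh38.p14) the order on chromosome 9 is CENPP, OGN, OMD, ASPN and ECM2, on chromosome 12 EPYC, KERA, LUM and DCN, and on chromosome 1 FMOD, PRELP and OPTC. The mouse genes were matched to these by symbol, for 22 of 23 neighbours. The values of the chromosome 9 run were not alike in the mouse cells. Ogn, Omd and Aspn were at 0 in every control library and present in every knockout library. Ecm2, a related matrix gene next in the row, had 8 counts over the knockout libraries and 5 over the control libraries, a ratio of 1.69 (exact 95% interval 0.488 to 6.57). That interval is too wide to tell a rise from none. Unlike those of Ogn, Omd and Aspn, the Ecm2 row was not divided.

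The flanking genes with other roles were counted in every library of both groups. Cenpp, a centromere protein gene, was at 6.87, 8.33 and 1.16 CPM in knockout and 5.99, 5.40 and 5.04 CPM in control (adjusted p = 0.998, edgeR). In the human table OGN, OMD, ASPN and ECM2 all lie within the span of CENPP. If mouse is alike, reads of these genes and of Cenpp introns could be mixed without strand information, and the strand setting is not given in the sources used here. Mixing of this kind was not tested. Nol8 fell 1.63-fold in knockout (adjusted p = 0.0212, edgeR), and Ippk was at 9.80 to 14.8 CPM in knockout and 16.04 to 23.5 CPM in control (adjusted p = 0.126).

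The other runs held silent genes and genes counted in both groups. Beside Dcn, the genes Lum, Kera and Epyc had 0 counts in all 6 libraries, and Btg1, an antiproliferative gene, was at 100.8 to 224 CPM in knockout and 115 to 121 CPM in control (adjusted p = 0.463, edgeR). Optc, beyond Fmod and Prelp, had 0 counts throughout. Chit1 had 20 counts over the knockout libraries and 5 over the control libraries, and Atp2b4 was at 0.343 to 1.84 CPM in knockout and 0.393 to 3.37 CPM in control (adjusted p = 0.406, edgeR). Btg2, on the other side of Fmod, had 8.06, 6.91 and 92.3 CPM in the knockout libraries in that order, against 3.63 to 5.05 CPM in control (adjusted p = 0.0629, edgeR). Like Prelp it was highest in knockout library 3. Beside Bgn, Haus7 and Ccnq had means of 27.1 and 20.2 CPM in knockout and 25.6 and 15.1 CPM in control (adjusted p = 0.903 and 0.0694, edgeR), and neither passed. Trex2 had 16 counts over the knockout libraries and 22 over the control libraries, and Atp2b3 had 1 in each group.

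**Figure D3:**
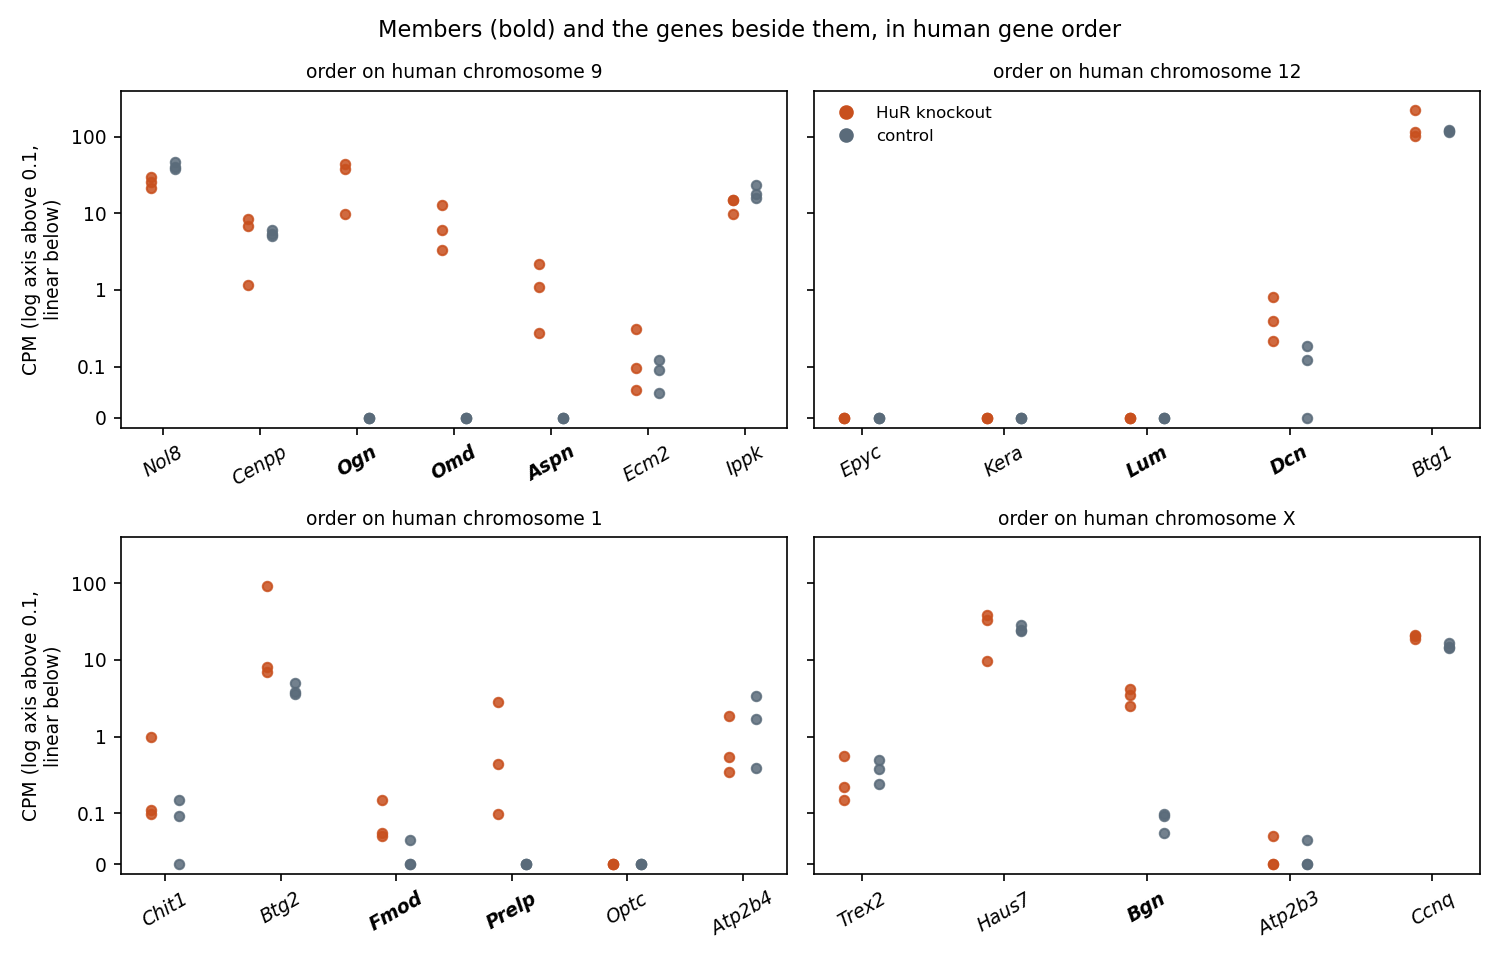
CPM of the members (bold) and of the mouse genes matched to their human neighbours, ordered as in the human RefSeq table and not to scale, with 1 point per library (HuR knockout orange, control grey) on an axis linear below 0.1 CPM and logarithmic above. Ogn, Omd and Aspn, in divided rows, are at 0 in control and above 0 in knockout. Ecm2, in an undivided row, is above 0 in every library of both groups. Lum, Kera, Epyc and Optc are at 0 in all libraries.

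The genes most like each member were sought by Euclidean distance between log2(CPM + 0.5) profiles over the 6 libraries, among all genes tested. Closest to Ogn were Agt (0.635), which encodes angiotensinogen, Pdgfrb (0.645), the PDGF receptor of mesenchymal cells, Olfml2a (0.795), Tnfaip8l3 (1.05) and the procollagen N-proteinase Adamts2 (1.06). Pdgfrb reached 12.6, 51.9 and 50.04 CPM in the knockout libraries in that order, against 1, 1 and 0 counts in control. Its low value in knockout library 1, as in Ogn, is what the search by distance selects for and is no separate result. Closest to Bgn were Fmo2 (0.389), 3425401B19Rik, Diras2, Dlx6 and Tlr5 (0.727). Closest to Omd were Spon2 (0.708), Mrgprf, Hoxc13, Abca9 and Orm1 (0.927). For Aspn the third closest was Xylt1 (0.945), the enzyme that starts glycosaminoglycan chains, after BC028528 and Acot12 and before Hsf2bp and Tlx2. For Prelp the distances were longer, from 1.02 for Ifi27l2a to 1.32 for Asgr2, with Muc2, Vsir and Ip6k3 between. These are the nearest of 12293 genes to profiles that mostly contrast the groups, so some close genes are always found. The distance also uses the level itself, so which genes come nearest depends on the division by 11 wherever a member or its neighbour stands in a divided row.

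The remaining small leucine-rich proteoglycans were read from a list of 10. Of these, 6 had a count, 5 were tested and 4 rose. Over all 12293 genes tested 35.7% passed, 20.3% upward and 15.4% downward in knockout. Genes close to 0 in control passed the filter on low counts by virtue of knockout, which favours upward calls in this and the lists that follow. Podn, or podocan, was at 0.817, 0.980 and 0.919 CPM in knockout and 0 in control, at least 17.6-fold higher (adjusted p = 0.00409, edgeR). Nyx, or nyctalopin, known from the retina, had 1.14, 1.72 and 3.74 CPM in knockout and 1 count over the control group, a ratio of 124 (exact 95% interval 21.8 to 4922). Both rows were divided by 11. Podnl1 was at 9.70, 13.5 and 2.88 CPM in knockout and 1.18 to 2.29 CPM in control, 4.98-fold higher (adjusted p = 0.0251, edgeR), and Tsku, a Wnt and BMP modulator, rose 2.22-fold. Podnl1 lost its call without control library 1, 2 or 3 (adjusted p = 0.0635, 0.0995 and 0.0915) or knockout library 1 or 2 (0.051 and 0.0673), and Tsku without control library 1, 2 or 3 (0.125, 0.132 and 0.0987), which leaves 2 genes. Chadl was at 1.42 to 2.45 CPM in knockout and 3.04 to 4.12 CPM in control and did not pass (adjusted p = 0.0953). Epyc, Kera, Optc and Chad had 0 counts in all libraries.

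Genes that build the sugar chains were tested next, since a core protein such as biglycan needs them to become a proteoglycan. Of 23 genes of the linker and of chondroitin and dermatan sulfate, all tested, 11 rose, 1 fell and 11 did not pass. With 1 library left out, 10 or 11 rose. The shares were 47.8% higher and 4.35% lower, against 20.3% and 15.4% over all genes tested. The median log2 fold change was 0.35, against 0.03 over all genes tested. Xylt1 was at 0.763, 1.23 and 1.16 CPM in knockout and 0 in control, at least 20.4-fold higher (adjusted p = 0.00454, edgeR). The chondroitin sulfotransferases Chst13 and Chst3 rose 18.9-fold and 9.07-fold, to 3.42 ± 0.601 and 3.06 ± 0.894 CPM (SD, n = 3; adjusted p = 0.00138 and 0.00296, edgeR).

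Some other chain genes, picked after their values were seen, moved the same way. Chst11, a further chondroitin sulfotransferase, was at 29.8, 34.0 and 38.8 CPM in knockout and 6.51, 4.42 and 6.68 CPM in control, 5.82-fold higher (adjusted p = 0.000635, edgeR). Xylt2, the other xylosyltransferase, rose 2.04-fold, and Chst14, which sulfates dermatan, rose 2.24-fold (adjusted p = 0.00201 and 0.00379). The epimerases that turn chondroitin into dermatan did not pass. Dse was at 35.6 to 50.4 CPM in knockout and 41.1 to 45.0 CPM in control (adjusted p = 0.992), and Dsel at 8.01 to 11.7 and 13.1 to 15.4 CPM (adjusted p = 0.131). The linker galactosyltransferase B4galt7 fell 1.41-fold (adjusted p = 0.0281, edgeR), a call lost without any 1 of the control libraries or without knockout library 1 or 2 (adjusted p = 0.0503 to 0.113), while 3 genes fell without knockout library 3.

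Keratan sulfate genes, which serve Lum, Fmod and Omd, came next. Of 8 listed, 6 were tested, with 1 higher, 2 lower and 3 that did not pass, too few to set apart from the 20.3% and 15.4% over all genes tested. The sulfotransferase Chst1 rose 6.47-fold, to 30.7 ± 6.71 CPM in knockout, against 4.75 ± 1.58 CPM in control (SD, n = 3 each; adjusted p = 0.00134, edgeR). The chain-extending B3gnt7 was at 0, 0.147 and 0.429 CPM in knockout and 1.94 to 3.46 CPM in control, 13.2-fold lower (adjusted p = 0.0149, edgeR), and B4galt4 fell 2.01-fold. Both lost the call without control library 1 (adjusted p = 0.0587 and 0.0876), control library 2 (0.0501 and 0.0576) or knockout library 2 (0.0515 and 0.063), and B4galt4 also without control library 3 (0.0639) or knockout library 1 (0.0583). A further gene rose without knockout library 1 or 3.

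Of 13 genes that supply activated sugars and sulfate, 7 rose (53.8%, against 20.3% over all genes tested) and 6 did not pass. Their changes were small, with a median log2 fold change of 0.57. The nucleotidase Cant1 rose 2.01-fold, the sulfate donor transporters Slc35b2 and Slc35b3 rose 2.00-fold and 1.88-fold (adjusted p = 0.00301, 0.0103 and 0.0106, edgeR). Without control library 1, 2 or 3 only 4, 2 and 3 genes rose, and Cant1 kept its call each time.

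**Figure D4:**
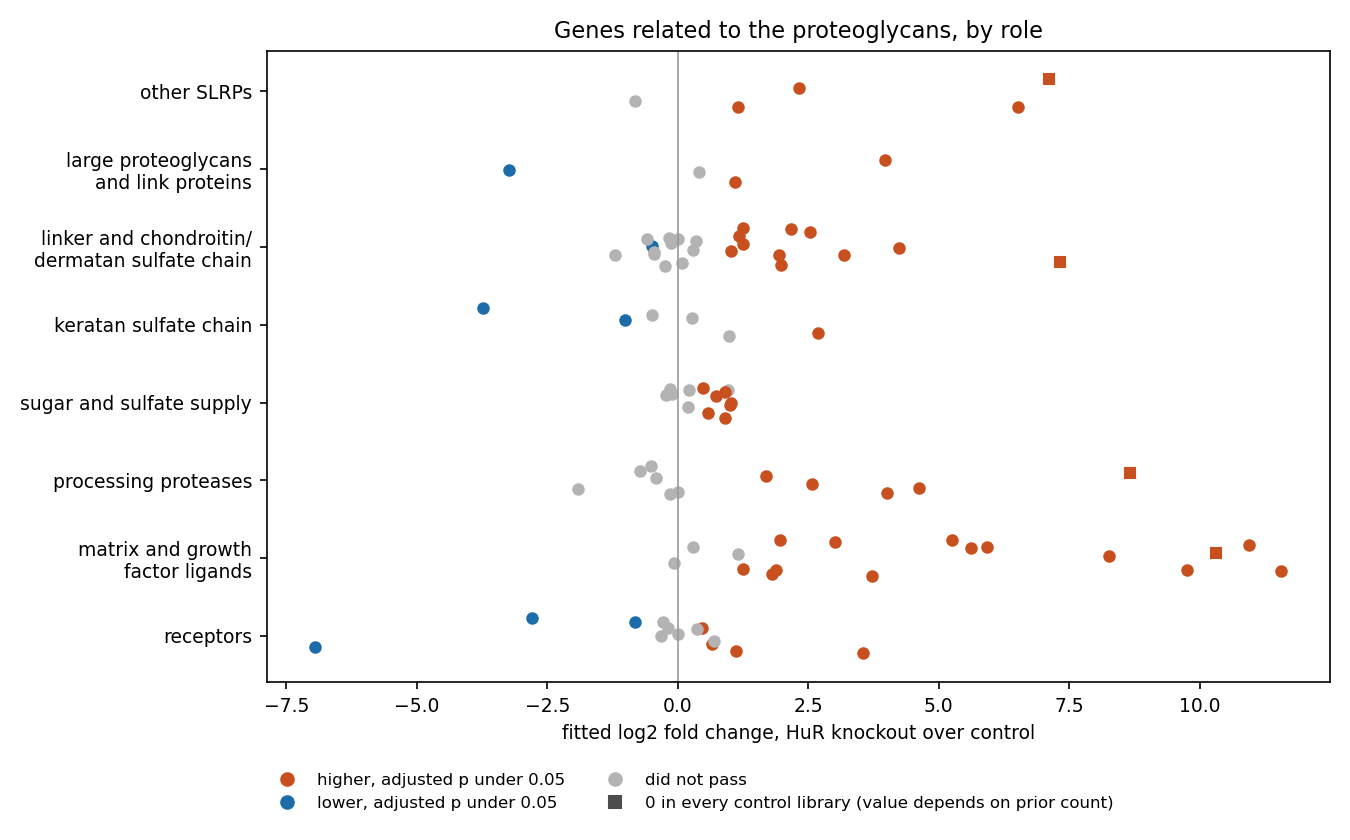
Fitted log2 fold change of HuR knockout over control for each tested related gene, grouped by role, coloured by whether the adjusted p of edgeR's quasi-likelihood test was under 0.05; squares are genes at 0 in every control library, whose value depends on the prior count. In the linker and chondroitin or dermatan sulfate list 11 of 23 genes are higher and 1 is lower. In the matrix and growth factor list 14 of 17 are higher. Over all genes tested 20.3% are higher and 15.4% lower.

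Proteases and helpers that trim these proteins or their collagen partners were mostly even or higher. Of 18 listed, 11 were tested, 5 rose (45.5%, against 20.3% over all genes tested) and 6 did not pass. Without control library 2 or 3, 3 rose, and without knockout library 3, 2 fell. Bmp1, which removes the propeptides of biglycan and osteoglycin, was at 75.7 to 97.2 CPM in knockout and 91.5 to 98.2 CPM in control (adjusted p = 0.394). Its relative Tll1 was at 2.73, 3.63 and 1.65 CPM in knockout and 0 in control, at least 53.2-fold higher (adjusted p = 0.00324, edgeR). Pcolce, the enhancer of procollagen cleavage, rose 24.5-fold to 901 ± 266 CPM, and the versican-cleaving Adamts9 rose 16.1-fold to 124 ± 75.4 CPM (SD, n = 3; adjusted p = 0.000288 and 0.00192, edgeR).

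Most of the matrix and growth factor partners rose. Of 21 listed, 17 were tested and 14 rose (82.4%, against 20.3% over all genes tested), and 10 to 14 rose with 1 library left out. The collagen VI chains Col6a3 and Col6a2, partners of biglycan and decorin, had the largest fitted increases, 3030-fold and 1970-fold (adjusted p = 0.000398 and 0.000205, edgeR). Eln, or elastin, was at 0.817, 5.83 and 18.7 CPM in knockout and 0 in control (adjusted p = 0.0256), with the call lost without any 1 of the control libraries or without knockout library 2 or 3 (adjusted p = 0.0513 to 0.0623). Tgfb2, a ligand that decorin and biglycan bind, named after its value was seen, rose 13.2-fold, while Tgfb1 was at 154 to 236 CPM in knockout and 156 to 168 CPM in control (adjusted p = 0.228).

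Among receptors of these proteoglycans, 13 of 16 listed were tested, 4 rose, 3 fell and 6 did not pass. These are 30.8% higher and 23.1% lower, against 20.3% and 15.4% over all genes tested, so the counts lie near the background. Lrp1, the endocytic receptor of decorin, rose 11.7-fold, to 603, 258 and 834 CPM in knockout, against 69.7, 21.9 and 53.1 CPM in control (adjusted p = 0.00532, edgeR). Tlr4 and its partner Cd14, through which biglycan acts, rose 2.16-fold and 1.57-fold (adjusted p = 0.0137 and 0.0254), and Tlr2 was at 2.16 to 4.03 CPM in knockout and 3.34 to 4.13 CPM in control (adjusted p = 0.507). Without control library 1, 2 or 3, Lrp1 was the only receptor that rose; Tlr4 then had an adjusted p of 0.053, 0.068 and 0.0637. Cd14 also lost its call without knockout library 2 (adjusted p = 0.063). Of the receptor kinases that decorin binds, Egfr fell 6.92-fold and Met 1.78-fold (adjusted p = 0.00217 and 0.00826, edgeR). Igf1r, another of them, rose 1.37-fold, with 89.0 to 103 CPM in knockout and 68.3 to 69.0 CPM in control (adjusted p = 0.0203), a call that did not hold when any 1 control library was left out (adjusted p = 0.0811 to 0.11). The collagen-binding integrin gene Itga2 fell 124-fold (adjusted p = 0.000336, edgeR).

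Large proteoglycans and link proteins, listed together, were mixed. Of 11 listed genes, 4 were tested, 2 rose and 1 fell, too few to set apart from the 20.3% and 15.4% over all genes tested. Vcan, or versican, was at 86.9 to 266 CPM in knockout and 109 to 147 CPM in control (adjusted p = 0.46, edgeR), and Acan, or aggrecan, fell 9.39-fold to 3.21 ± 2.26 CPM, against 30.1 ± 7.50 CPM in control (SD, n = 3 each; adjusted p = 0.00459). The proteoglycan gene Cspg4 rose 15.7-fold and the link protein gene Hapln4 2.15-fold (adjusted p = 0.0103 and 0.0222, edgeR). Without control library 2 neither passed (0.0523 and 0.101), and Hapln4 did not pass without control library 1 or 3 or knockout library 2 either (0.0646, 0.0866 and 0.0572).

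Markers of cells that usually make these proteoglycans were read beside them. In bulk RNA a change in the number of cells of a kind and in RNA per cell cannot be told apart. The 14 fibroblast markers summed to 607 to 719 CPM in knockout and 270 to 322 CPM in control, but 7 of the 14 were under 1 CPM in every library, among them Col1a2, Postn, Fap, Thy1 and Dpt. Pdgfra was at 1.81 to 8.82 CPM in knockout and 2.26 to 3.74 CPM in control. Of the 7 tested, 5 rose (Pdgfrb, Col1a1, Col3a1, Fbln1 and Dpep1) and 2 did not pass, against 20.3% rising over all genes tested. Pdgfrb and Col3a1 had adjusted p = 0.000788 and 1.5e-05 (edgeR). Fbln2, which did not pass, held most of the control sum. It was at 152.5 to 232 CPM in knockout and 261 to 305 CPM in control (adjusted p = 0.0616, edgeR). Dcn and Lum, which are not on that list, and Col1a2 were at or near 0.

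The 10 osteoblast markers summed to 1124, 1853 and 5294 CPM in knockout libraries 1, 2 and 3 and 168 to 263 CPM in control, nearly all of it Spp1. All 5 that were tested rose, against 20.3% over all genes tested, and those at 0 in control could enter only through knockout counts. Sp7, the osteoblast transcription factor osterix, was at 1.47, 1.91 and 0.612 CPM in knockout and 0 in control, and Dmp1, of the bone matrix, at 1.31, 4.02 and 2.39 CPM and 0. Ibsp, or bone sialoprotein, which was not tested, was at 0.109, 1.52 and 0.612 CPM in knockout and 0 in control. These markers did not share 1 order of the knockout libraries. Ibsp and Dmp1 were lowest in knockout library 1, Phex in library 2 and Sp7 in library 3. Bglap, osteocalcin, had 0 counts in knockout, while Bglap2, a further osteocalcin gene, had 4 counts in knockout library 3 and 0 in each control library. Alpl stayed at 0.218 to 0.796 CPM in knockout and at 0 to 0.655 CPM in control. Sp7, Dmp1, Ibsp and Bglap2 stand in divided rows.

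The 9 smooth muscle and pericyte markers summed to 86.9 to 172 CPM in knockout and 3.68 to 9.31 CPM in control, most of it Notch3. All 3 of them that were tested rose, against 20.3% over all genes tested, while Acta2 and Tagln were at most 0.182 CPM in any library. The 6 tendon markers summed to 34.2 to 50.6 CPM in knockout and 35.0 to 41.4 CPM in control, most of it Scx, with Tnmd and Thbs4 at 0 in all libraries. Of the 3 tested, 1 fell and 2 did not pass, too few to set apart from the 15.4% falling over all genes tested. Tnc fell 13.9-fold (adjusted p = 0.0039, edgeR), while Comp, not tested, had 38 counts over the knockout libraries and 8 over the control libraries. The 11 chondrocyte markers summed to 45.0 to 176 CPM in knockout and 112 to 125 CPM in control, most of it Sox9, with Col9a1 and Matn1 at 0 throughout. Of the 3 tested, Col11a2 rose, Acan fell and Sox9 did not pass, again too few to set apart. The endothelial markers summed to 0.654 to 1.96 CPM in knockout and 0.540 to 0.729 CPM in control. The leukocyte markers summed to 1.81 to 37.1 CPM in knockout, highest in knockout library 3 through Cd68, and to 2.41 to 6.51 CPM in control, with Ptprc at 0 in knockout. The part of any other cell kind in the values of Ogn, Omd, Aspn, Prelp and Bgn was not tested.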

How the data were processed

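The authors deposited 1 table of whole-number counts per gene symbol for 6 libraries. Per the submitters' processing notes, the build was hg38 and the tools were featureCounts and STAR 2.7.1a, with roles not stated. The symbols are those of mouse. Annotation and strand setting: not given in the sources used here. Columns were tied to samples through the library names in the labels. Of 16325 genes with a count, the 1704 at 0 in control library 1 were divided by 11. The members and gene lists were chosen with earlier results of these data known.

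The fit was made in R 4.3.3 by edgeR 4.0.16 (filterByExpr, TMM, robust quasi-likelihood test of knockout against control, Benjamini-Hochberg over 12293 genes, threshold 0.05). Members got no test. Their ratios are pooled CPM of knockout over control, with exact 95% conditional binomial intervals, or bounds against 3 counts over a group at 0. These reflect counting error alone. No library was a duplicate of another in its group (chi-square per degree of freedom of 8.84 or more for each pair). The fit was also run on simulated counts, with changes set only in well-counted genes. That run does not cover genes near 0 in control. Alternatives were counts as deposited, the table without divided rows, RLE scaling, DESeq2 1.42.0, no filter, a replicate block and leaving out each library. The text names all members and other small proteoglycans, from each related list up to 3 called genes with the largest and 3 with the smallest fold changes, the 2 nearest human neighbours on each side that were matched and the 5 nearest profiles; genes named beyond this were picked after their values were seen. No mouse sequence was used here, so none is printed.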

Additional observations from a re-analysis of the deposited data

How the results depend on the processing

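The 7 members with knockout above control stayed 7 under counts as deposited, RLE scaling, no filter and with any 1 library left out. Leaving out a library or multiplying a row by 11 cannot undo such a separation, apart from small changes in scaling. This count could therefore hardly change. At the deposited scale the bounds of Ogn, Omd, Aspn and Prelp rose to 6417-fold, 1629-fold, 259-fold and 216-fold by construction, and without control library 1 Fmod had no control count and a bound of 1.11-fold; the other 58 recomputed member ratios moved by less than 1 SD of the knockout libraries. With 1 library left out, the numbers of changed genes over the whole table ranged from 1166 to 3178 higher and 1130 to 2843 lower (main 2493 and 1899), and those of related genes from 29 to 51 higher and 4 to 12 lower (main 48 and 7). DESeq2 called 11 related genes lower, and the cause was not tested. The other named related genes kept their direction, and 57 of their recomputed calls were lost. Elavl1, which did not pass, ranged over log2 fold changes of -0.089 to 0.006 with 1 library left out (main -0.04), with the positive value without knockout library 3. Same-numbered libraries deviated from their group means at r = -0.045, 0.282 and 0.0428, so the numbers are not taken to pair samples. With the replicate block 1976 genes rose and 1615 fell, 41 and 7 of them related genes; Podnl1, Hapln4, B4galt7, Cd14 and Igf1r then did not pass. Member ratios take no block. Depth limits Lum, Dcn and Fmod, which held few or no counts, and also Prelp and Aspn, whose counts after division were too few for the fit. The table without divided rows gives no value for Ogn, Omd, Aspn and Prelp.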

Other observations

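Among the collagen partners of the small proteoglycans, values differed between the groups for some chains and could hardly be read for others. They are given gene by gene, since counts are not per length. Col1a1 reached 199, 121 and 119 CPM in the 3 knockout libraries, against 3.84, 0.688 and 4.44 CPM in control. Col1a2, the other chain of type I collagen, had 3 counts over the knockout libraries and 0 over the control libraries. Col5a1 was at 218, 173 and 454 CPM in knockout and 27.7 to 46.9 CPM in control, while Col5a2 did not exceed 0.551 CPM in knockout and 0.0468 CPM in control. Col1a2 stands in a divided row and Col5a2 does not. The 3 collagen VI chains were all far above control: Col6a1 was at 1246 to 2812 CPM in knockout and 1.08 to 3.37 CPM in control, Col6a2 at 744 to 1362 and 0.197 to 0.936 CPM, and Col6a3 at 573 to 1895 and 0.0982 to 0.655 CPM. These genes were singled out after their values were seen, and no test was made between chains.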
